A study of Mus musculus with 16 samples.

Results

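A set of 37 genes of mitosis and of the G2/M transition was followed in wild-type (WT) and TTPΔARE mouse stomach. The genes were the rows with the listed symbols in a table of counts per gene symbol, and all 37 were found among its 24964 symbols. There were 16 RNA-seq libraries, 4 in each of the groups WT-A, WT-S, TTP-A and TTP-S. All came from stomach of female mice aged 8 weeks, from a 4 mm biopsy of the corpus at the lesser curvature. The WT groups were C57BL/6 and carried no altered allele per the labels. The TTP groups were congenic C57BL/6 with the genotype TTPΔARE, whose zygosity was not given in the sources used here. The treatment label of the A groups was gastric inflammation induced by adrenalectomy, the removal of the adrenal glands. That of the S groups was spasmolytic polypeptide-expressing metaplasia (SPEM), a mucous lineage that appears in injured corpus glands. The labels do not say what the letter S stands for or whether S mice were operated on, so S is only a group name here. They also do not say whether the 4 libraries of a group came from 4 mice, so every p-value measures the spread between these libraries, which may be technical.

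Mitosis is driven by cyclin-dependent kinase 1 bound to cyclins of the A and B type, together with the Polo and Aurora kinases. These kinases act on chromosome structure, on the kinetochores that attach chromosomes to the spindle, and on the spindle itself. A checkpoint delays anaphase until all kinetochores are attached, after which an E3 ubiquitin ligase activated by Cdc20 starts chromosome separation and cytokinesis follows. Transcripts of these genes accumulate together late in the cell cycle, so in tissue RNA they mark dividing cells. In the gastric corpus, dividing cells are normally found in the isthmus of the glands. Zfp36 encodes tristetraprolin (TTP), an RNA-binding protein that speeds the decay of mRNAs with AU-rich elements, and in the TTPΔARE allele such an element of Zfp36 itself is deleted. Levels are given as CPM (counts scaled to the library total) on library totals scaled by the trimmed mean of M-values (TMM). Zfp36 itself was at 55.1 to 65.8 CPM in WT-S, 63.2 to 88.6 in WT-A, 115 to 129 in TTP-S and 110 to 131 in TTP-A, so the genotypes did not overlap.

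The promoters of 6 of the genes are shown because most of the promoters found for the set share motifs near the start of transcription. Cenpa, Nek2, Birc5, Kif4 and Ccnb2 had the smallest adjusted p-values for the rise in WT-A among genes with a promoter entry. Aurka also rose there, but was included because it alone passed the test in TTP-A against WT-A, where it was lower. Promoters (250 bases before to 50 after the annotated start) were taken from RefSeq on GRCm38.p6, and 32 of the 37 genes had an entry. Capitals mark matches, on either strand, to TTTGAA, the letters of the cell cycle genes homology region (CHR), or to CCAAT, the box bound by the factor NF-Y. On the other strand these read TTCAAA and ATTGG. Cenpa lies at chr5:30666636-30666935 on the + strand, Nek2 at chr1:191821223-191821522 on the + strand and Birc5 at chr11:117848987-117849286 on the + strand. Kif4 lies at chrX:100625815-100626114 on the + strand, Ccnb2 at chr9:70421505-70421804 on the − strand and Aurka at chr2:172370521-172370820 on the − strand. The last bases of each window were found near the beginning of a GENCODE transcript of the gene, except for Aurka. Birc5 has no capitals because neither motif was matched in its window.
Cenpa promoter: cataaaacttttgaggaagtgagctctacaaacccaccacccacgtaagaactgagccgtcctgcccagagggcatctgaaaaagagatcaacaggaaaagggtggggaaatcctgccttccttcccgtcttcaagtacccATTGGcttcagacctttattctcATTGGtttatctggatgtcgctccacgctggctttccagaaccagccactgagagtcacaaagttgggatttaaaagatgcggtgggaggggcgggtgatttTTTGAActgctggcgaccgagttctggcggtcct
Nek2 promoter: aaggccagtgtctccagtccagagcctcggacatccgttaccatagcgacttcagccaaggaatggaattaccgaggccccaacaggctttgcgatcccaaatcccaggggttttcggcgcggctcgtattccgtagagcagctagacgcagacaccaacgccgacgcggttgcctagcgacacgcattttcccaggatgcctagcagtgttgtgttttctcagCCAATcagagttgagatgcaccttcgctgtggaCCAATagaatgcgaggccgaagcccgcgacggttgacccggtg
Birc5 promoter: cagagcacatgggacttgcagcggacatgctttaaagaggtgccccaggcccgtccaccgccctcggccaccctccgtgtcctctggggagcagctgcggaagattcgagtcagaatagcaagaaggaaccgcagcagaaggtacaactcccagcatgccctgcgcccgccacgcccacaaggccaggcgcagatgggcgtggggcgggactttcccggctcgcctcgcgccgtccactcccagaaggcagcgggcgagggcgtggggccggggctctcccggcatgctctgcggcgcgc
Kif4 promoter: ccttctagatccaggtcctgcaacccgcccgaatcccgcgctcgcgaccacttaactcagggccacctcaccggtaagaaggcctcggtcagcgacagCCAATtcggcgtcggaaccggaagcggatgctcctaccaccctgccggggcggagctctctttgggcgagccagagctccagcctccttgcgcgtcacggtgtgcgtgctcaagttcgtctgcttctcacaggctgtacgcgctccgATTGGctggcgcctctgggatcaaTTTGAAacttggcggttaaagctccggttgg
Ccnb2 promoter: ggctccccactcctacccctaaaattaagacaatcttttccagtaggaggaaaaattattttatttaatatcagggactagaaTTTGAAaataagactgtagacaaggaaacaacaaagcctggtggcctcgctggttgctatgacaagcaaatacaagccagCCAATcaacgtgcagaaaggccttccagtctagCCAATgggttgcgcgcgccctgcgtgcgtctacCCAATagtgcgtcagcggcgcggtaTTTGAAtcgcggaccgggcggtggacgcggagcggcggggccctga
Aurka promoter: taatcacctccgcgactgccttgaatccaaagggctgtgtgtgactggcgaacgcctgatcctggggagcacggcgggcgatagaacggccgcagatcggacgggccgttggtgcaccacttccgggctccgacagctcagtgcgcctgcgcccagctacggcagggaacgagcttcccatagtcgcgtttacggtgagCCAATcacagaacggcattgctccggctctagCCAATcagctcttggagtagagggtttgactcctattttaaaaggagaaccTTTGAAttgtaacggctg

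At least 1 match to CHR was found in 25 of the 32 genes, and at least 1 CCAAT box in 26. By promoter, CHR was in 27 of 34 (79.4%), against 17.9% of the 32851 promoters in the table and 12.1% of the promoters of genes tested. CCAAT was in 82.4% of the 34, against 37.4% and 37.1%. Both motifs were in 22 genes and in 70.6% of the 34 promoters, against 6.95% of all promoters and 4.79% of those of genes tested. No base was shared between a CHR match and a CCAAT match. CHR matches clustered at the start of transcription: the median position of their first base was −1.5, and that of the CCAAT boxes was −69.5. In 73.5% of the 34 promoters a CHR match began between 100 bases before and 50 after the start, against 8.01% of all promoters. Birc5, Nuf2 and Nusap1 had neither motif. A CHR match was in 15 of the 20 genes with an entry that rose in WT-A and in 10 of the 12 that were not called. These are matches of letters, not sites of binding.

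**Figure D1:**
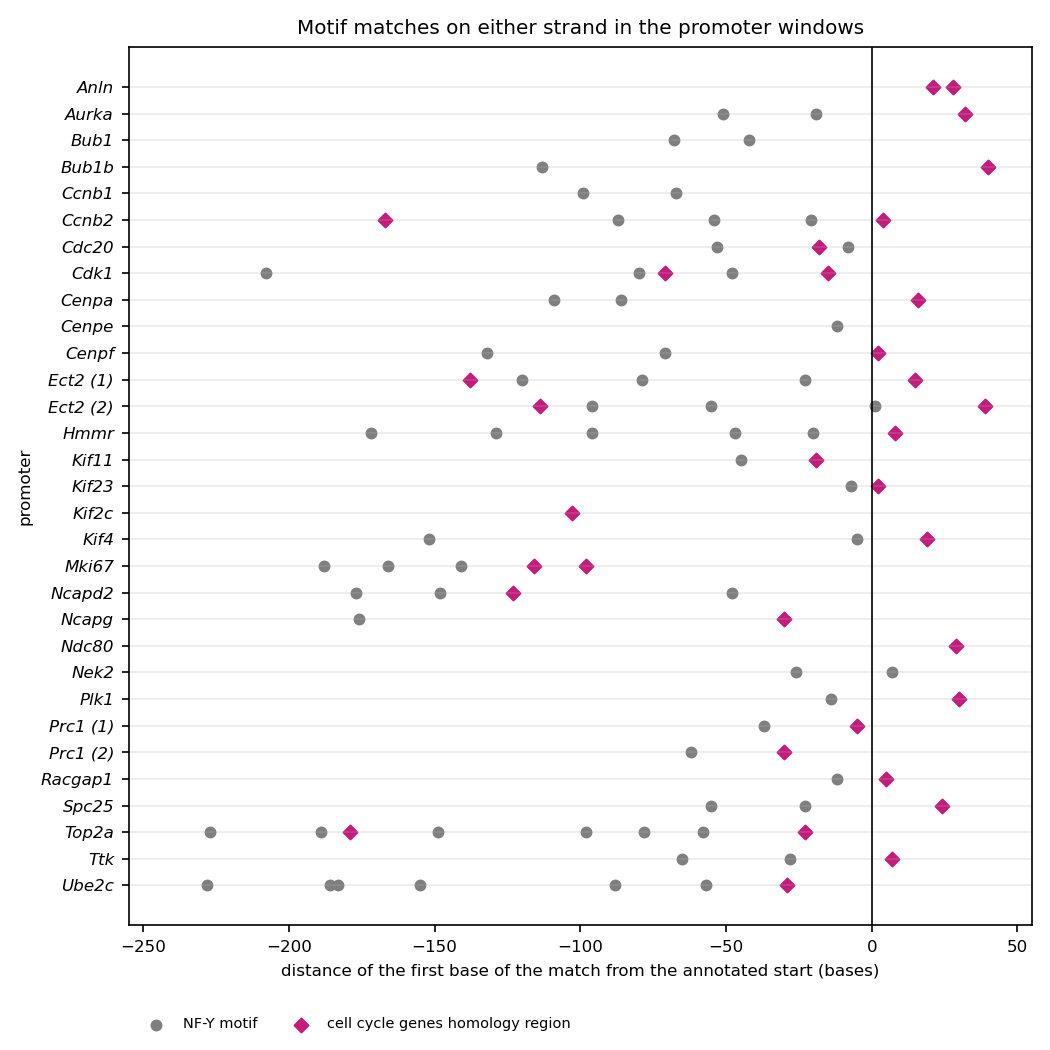
Position of each CHR match (diamonds) and NF-Y motif (circles) in the promoters that had a match, with distance from the annotated start in bases on the x axis and 1 promoter per row. Ect2 and Prc1 have 2 promoters each, numbered in brackets. Most diamonds lie near 0 and the circles to their left.

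The libraries held 17453930 to 25849472 counts each, with 17607 to 18377 genes detected, and all 37 genes passed the filter on low counts that left 15385 genes for testing. Markers of parietal, chief and surface mucous cells were abundant in all 16 libraries, with Atp4a at no less than 9835 CPM, Pgc at no less than 46389 CPM and Gkn1 at no less than 12942 CPM. The libraries WT-A 3 and WT-A 4 stood apart from the rest: the deviation of their genes from the gene medians followed transcript GC content with a Spearman rho of 0.72 and 0.74 across 11548 genes, against at most 0.30 in size in the other 14. Results that involve WT-A are therefore given with all 16 libraries and, for many of those that differ, also with the 14 libraries that leave this pair out.

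Levels of the 37 genes spanned a wide range. Per kilobase of the longest annotated transcript, and averaged over all libraries, Plk1 was highest at 61.4 CPM per kb, followed by Mki67 at 12.0 and Smc4 at 8.27. This order depends on the length used, and other transcript lengths were not tried. At the other end, Ndc80 was at 0.526 CPM per kb, Ttk at 0.856 and Bub1 at 0.919. Summed over all 37, WT-S libraries held 577, 651, 683 and 560 CPM and WT-A libraries held 847, 810, 717 and 821. TTP-S libraries summed to 637, 702, 585 and 699 CPM, and TTP-A libraries to 667, 708, 768 and 654. All WT-A sums were above all WT-S sums, whereas TTP-S and TTP-A overlapped. Plk1 and Mki67 made up a large share of each sum. Without them the sums were 332 to 432 CPM in WT-S, against 441 to 549 in WT-A, which again did not overlap.

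Within a group the genes tended to be high or low in the same libraries. WT-S 4 was the lowest WT-S library in 22 of the 37 genes and WT-S 1 in 13. TTP-S 3 was the lowest TTP-S library in 30 genes, TTP-A 3 the highest TTP-A library in 26, and WT-A 3 the lowest WT-A library in 26. The genes are thus not independent of each other, and counts over them describe these libraries. Plk1 went the other way: it was at 146 and 141 CPM in WT-S 1 and WT-S 4, against 115 and 130 in WT-S 2 and WT-S 3. In TTP-A 1 and TTP-A 4, the lowest TTP-A libraries in 12 and 19 genes, Plk1 was at 157 and 144 CPM. In TTP-A 2 and TTP-A 3 it was at 125 and 138 CPM.

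**Figure D2:**
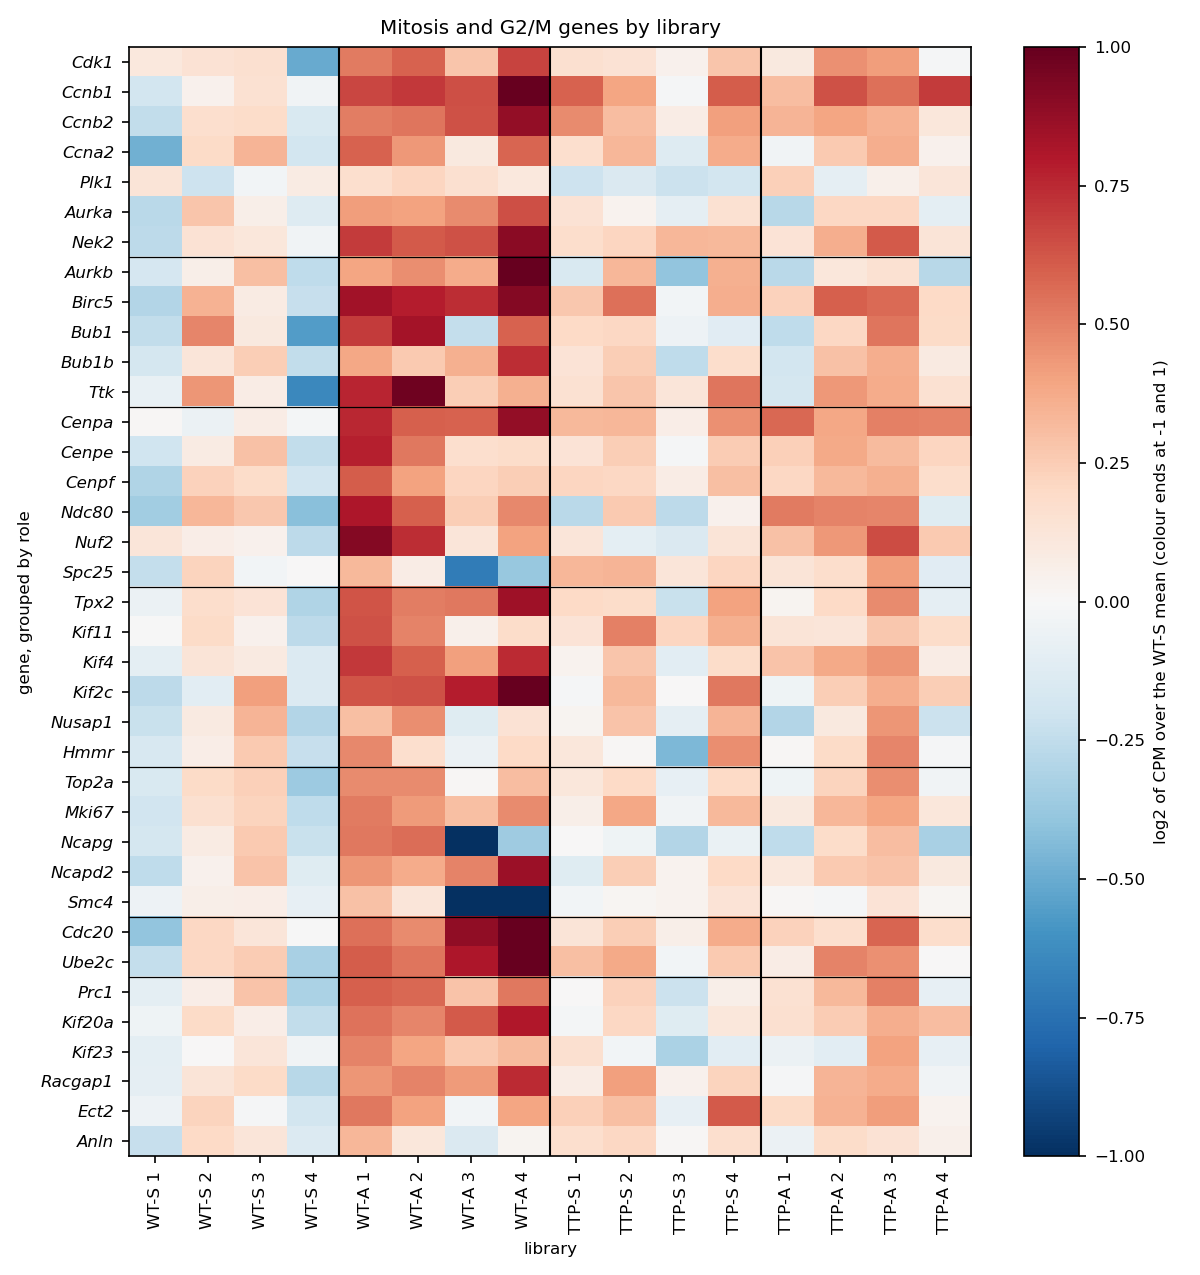
Each gene (rows, grouped by role) in each of the 16 libraries (columns), as log2 of its CPM over the mean of WT-S. The 4 WT-A columns are red for most genes, WT-A 3 is palest among them with Smc4 and Ncapg in blue, and the TTP-S and TTP-A columns look alike.

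The comparison of WT-A with WT-S asks how these transcripts differ with condition A in wild-type stomach. Transcripts of 22 of the 37 genes rose in WT-A and none fell (edgeR quasi-likelihood test, Benjamini-Hochberg adjusted p under 0.05, referred to as called). Of all 15385 genes tested, 9.8% were called higher, 1508 in number, and 1383 were called lower (2201 and 1112 with upper quartile scaling). The log2 difference was positive for 35 of the 37, with a median of 0.52 against 0.0094 over all genes tested. In 21 genes every WT-A library was above every WT-S library, against 9.2% of genes tested. In whole-tissue RNA, more dividing cells and more RNA per dividing cell cannot be told apart.

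Among the cyclins and kinases of mitotic entry, 5 of 7 rose. Ccnb1, which encodes cyclin B1, was at 2.69, 3.14, 3.39 and 2.97 CPM in the WT-S libraries and at 4.84, 4.97, 4.76 and 6.52 CPM in WT-A. The groups did not overlap, and the log2 difference was 0.78 (SE 0.15, adjusted p = 0.00444). Ccnb2, the other B-type cyclin of the set, was at 6.66, 8.91, 8.98 and 7.12 CPM in WT-S, against 11.3, 11.5, 12.3 and 14.5 in WT-A, a log2 difference of 0.64 (SE 0.12, adjusted p = 0.00383). Nek2, a kinase that separates centrosomes, was at 4.76 to 6.32 CPM in WT-S, against 8.73 to 10.7 in WT-A, a log2 difference of 0.71 (SE 0.12, adjusted p = 0.00234). The rises in Cdk1, the kinase partner of these cyclins, and Aurka, a spindle pole kinase, were smaller. Cdk1 was at 8.34, 8.57, 8.67 and 5.48 CPM in WT-S, against 11.2, 11.7, 9.40 and 12.4 in WT-A (log2 0.52, SE 0.14, adjusted p = 0.0220). Only WT-S 4 was far below the other WT-S libraries, and without it the call was lost (adjusted p = 0.0556). Without WT-A 4 it was lost too (adjusted p = 0.0509). Aurka differed by 0.48 (SE 0.13, adjusted p = 0.0194), and its call was lost in the 14 libraries (0.41, adjusted p = 0.0973). Leaving out WT-S 4 alone also ended it (adjusted p = 0.0562). The cyclin A gene Ccna2 was higher by 0.43 on the log2 scale but overlapped between the groups and was not called (adjusted p = 0.0719). Plk1, by far the most abundant of these, was at 146, 115, 130 and 141 CPM in WT-S, against 150, 155, 149 and 143 in WT-A, and its log2 difference of 0.16 (SE 0.07) was not called (adjusted p = 0.121).

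Among the chromosomal passenger complex and the spindle checkpoint, 2 of 5 genes were called. Birc5, which encodes the passenger subunit survivin, was at 6.49, 10.1, 8.41 and 6.76 CPM in WT-S, against 14.2, 13.7, 13.2 and 15 in WT-A. Its log2 difference was 0.81 (SE 0.15, adjusted p = 0.00310), the largest of the 37 in 16 libraries by a small margin over Kif2c and Cdc20. It was 0.81 in the 14 libraries as well, below Ttk and Nuf2. Aurkb, the kinase of the same complex, was at 3.48 to 5.11 CPM in WT-S, against 5.38 to 8.30 in WT-A. Its groups did not overlap either, but WT-A 4 alone reached 8.30 while the other WT-A libraries lay between 5.38 and 5.73. The difference of 0.57 (SE 0.19) missed the threshold (adjusted p = 0.0503), and in the 14 libraries it was 0.43 (adjusted p = 0.212). Bub1b, a checkpoint protein, was called by a small margin (log2 0.44, adjusted p = 0.0489) and lost its call in 20 of 28 alternative fits, among them the 14 libraries (0.32, adjusted p = 0.227). The checkpoint kinase Ttk was at 2.003 ± 0.592 CPM in WT-S, against 3.07 ± 0.725 in WT-A (mean ± SD, n = 4 each), a log2 difference of 0.61 that was not called with 16 libraries (adjusted p = 0.0631) but was with 14 (0.86, adjusted p = 0.0340). Bub1, another checkpoint kinase, differed by 0.52 (SE 0.24) with overlapping groups and was not called (adjusted p = 0.136). In the 14 libraries it differed by 0.76 (adjusted p = 0.0587).

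At the kinetochore and centromere 4 of 6 genes rose. Cenpa, the histone H3 variant of centromeres, had the smallest adjusted p of the 37. It was at 5.65, 5.39, 5.90 and 5.53 CPM in WT-S, against 9.46, 8.52, 8.47 and 10.3 in WT-A, a log2 difference of 0.71 (SE 0.10, adjusted p = 0.000889). The WT-S libraries lay within a narrow band, well below every WT-A library. Nuf2, a subunit of the Ndc80 complex that binds microtubules, was at 3.63 to 4.76 CPM in WT-S. Its WT-A libraries were at 8.23, 7.28, 4.76 and 5.78 CPM, so the pair WT-A 3 and 4 lay close to WT-S. The log2 difference was 0.58 (adjusted p = 0.0218) in 16 libraries and 0.83 (adjusted p = 0.00397) in 14. Cenpe, a kinetochore motor, and Cenpf, a kinetochore protein, rose by 0.43 and 0.37 on the log2 scale (adjusted p = 0.0382 and 0.0349), and both had overlapping groups. In the 14 libraries they were at 0.66 and 0.50 (adjusted p = 0.00772 and 0.0221). Cenpe lost its call without any 1 of the libraries WT-S 1, WT-S 2, WT-S 4, WT-A 1 and WT-A 2, and Cenpf without any 1 of WT-S 1, WT-S 4, WT-A 1 and WT-A 2. Ndc80 was at 1.71 ± 0.467 CPM in WT-S, against 2.50 ± 0.403 in WT-A and was not called (log2 0.53, adjusted p = 0.0854; 0.69 and 0.0884 in the 14 libraries). Spc25, another subunit of that complex, had a log2 difference of −0.12 (SE 0.18, adjusted p = 0.666), with WT-A libraries at 7.90, 6.66, 3.90 and 4.87 CPM. In the 14 libraries its value was 0.20 (adjusted p = 0.402).

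Of the spindle motors and microtubule factors 3 of 6 rose. Kif2c, a kinesin that depolymerises microtubules, was at 2.97, 3.31, 4.71 and 3.23 CPM in WT-S, against 5.49, 5.52, 6.12 and 7.96 in WT-A (log2 0.81, SE 0.17, adjusted p = 0.00717), and its value was 0.63 (adjusted p = 0.0499) in the 14 libraries. Tpx2, which activates Aurora A on the spindle, was at 11.7 to 16.2 CPM in WT-S, against 20.4 to 25.8 in WT-A (log2 0.63, SE 0.14, adjusted p = 0.00936). Kif4, a chromosome-bound kinesin, was at 5.89 to 7.08 CPM in WT-S, against 8.62 to 10.9 in WT-A (log2 0.62, SE 0.11, adjusted p = 0.00337). None of these 3 overlapped between the groups. Kif11, the motor that pushes the spindle poles apart, was at 11.4, 13.0, 11.7 and 9.52 CPM in WT-S, against 17.8, 16.1, 11.8 and 13.0 in WT-A. It was not called in 16 libraries (0.36, adjusted p = 0.0535) and was in 14 (0.57, adjusted p = 0.00840). The microtubule-binding genes Nusap1 and Hmmr each differed by 0.21 on the log2 scale and were not called (adjusted p = 0.406 and 0.408). In the 14 libraries their values were 0.38 and 0.33 (adjusted p = 0.241 and 0.328).

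The 2 genes of anaphase promotion both rose. Cdc20, which activates the anaphase-promoting complex, was at 5.82, 8.86, 8.36 and 7.63 CPM in WT-S, against 11.2, 10.7, 14.2 and 18.1 in WT-A. The log2 difference was 0.81 (SE 0.17, adjusted p = 0.00571), and without the pair WT-A 3 and 4, its highest libraries, it was 0.51 (adjusted p = 0.0444). Ube2c, the ubiquitin-conjugating enzyme of the same complex, was at 7.32 to 11.0 CPM in WT-S, against 13.3 to 19.4 in WT-A (log2 0.77, SE 0.16, adjusted p = 0.00628). Its value was 0.57 (adjusted p = 0.0486) in the 14 libraries. Together with GC content offsets, which adjust each library for the trend with transcript GC content, the 14 libraries no longer gave calls for Ube2c (adjusted p = 0.0671), Cdc20 (0.0658) or Kif2c (0.0519).

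Chromosome structure genes differed among themselves. Mki67, which encodes the proliferation marker Ki-67, was at 90.3, 115, 120 and 86.6 CPM in WT-S, against 148, 139, 127 and 143 in WT-A, and its rise of 0.43 (SE 0.12, adjusted p = 0.0210) was among the smaller ones. Without WT-S 4 it was not called (adjusted p = 0.0661). The condensin subunit Ncapd2 rose by 0.55 (SE 0.12, adjusted p = 0.00848), from 29.0 ± 4.75 to 42.5 ± 6.69 CPM, and missed the threshold in the 14 libraries (0.41, adjusted p = 0.0519). Top2a, the topoisomerase that untangles sister chromatids, was at 32.2 ± 6.20 and 40.5 ± 5.78 CPM and was not called (0.33, adjusted p = 0.114). In the 14 libraries its value was 0.47 (adjusted p = 0.0681). The other condensin subunits split by library. Smc4 was at 35.6, 38.5, 38.6 and 34.9 CPM in WT-S but 45.3, 40.2, 16.3 and 17.8 in WT-A. WT-A 1 was the highest and the pair WT-A 3 and 4 the lowest of the 16 libraries. Its log2 difference was −0.30 (SE 0.24, adjusted p = 0.372) in 16 libraries and 0.21 (SE 0.07, adjusted p = 0.0562) in 14. Ncapg behaved alike, at 5.92, 6.07, 1.72 and 3.22 CPM in WT-A against 3.53 to 4.93 in WT-S, with a value of 0.04 (adjusted p = 0.928) in 16 libraries and 0.54 (adjusted p = 0.0684) in 14.

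Of the central spindle and cytokinesis genes 4 of 6 rose. Kif20a, a kinesin of the central spindle, was at 10.9, 12.8, 11.8 and 9.42 CPM in WT-S, against 16.3, 15.7, 17.1 and 19.5 in WT-A (log2 0.61, SE 0.10, adjusted p = 0.00208). Racgap1 and Kif23, which together form centralspindlin, rose by 0.53 (adjusted p = 0.0114) and 0.37 (adjusted p = 0.0357). Prc1, which bundles antiparallel microtubules at the midzone, rose by 0.50 (adjusted p = 0.0231). In all 4 the groups did not overlap, although for Prc1 the highest WT-S library and the lowest WT-A library were both at 16.5 CPM to 3 digits. Racgap1 just missed the threshold in the 14 libraries (0.47, adjusted p = 0.0506). Ect2, the exchange factor that activates RhoA, was at 9.65 ± 1.15 CPM in WT-S, against 12.2 ± 1.91 in WT-A and was not called (0.34, adjusted p = 0.107). Anln, a scaffold of the contractile ring, was at 14.96 ± 2.11 and 15.9 ± 2.22 CPM (0.09, SE 0.11, adjusted p = 0.574), and its value was 0.23 (adjusted p = 0.213) in the 14 libraries.

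**Figure D3:**
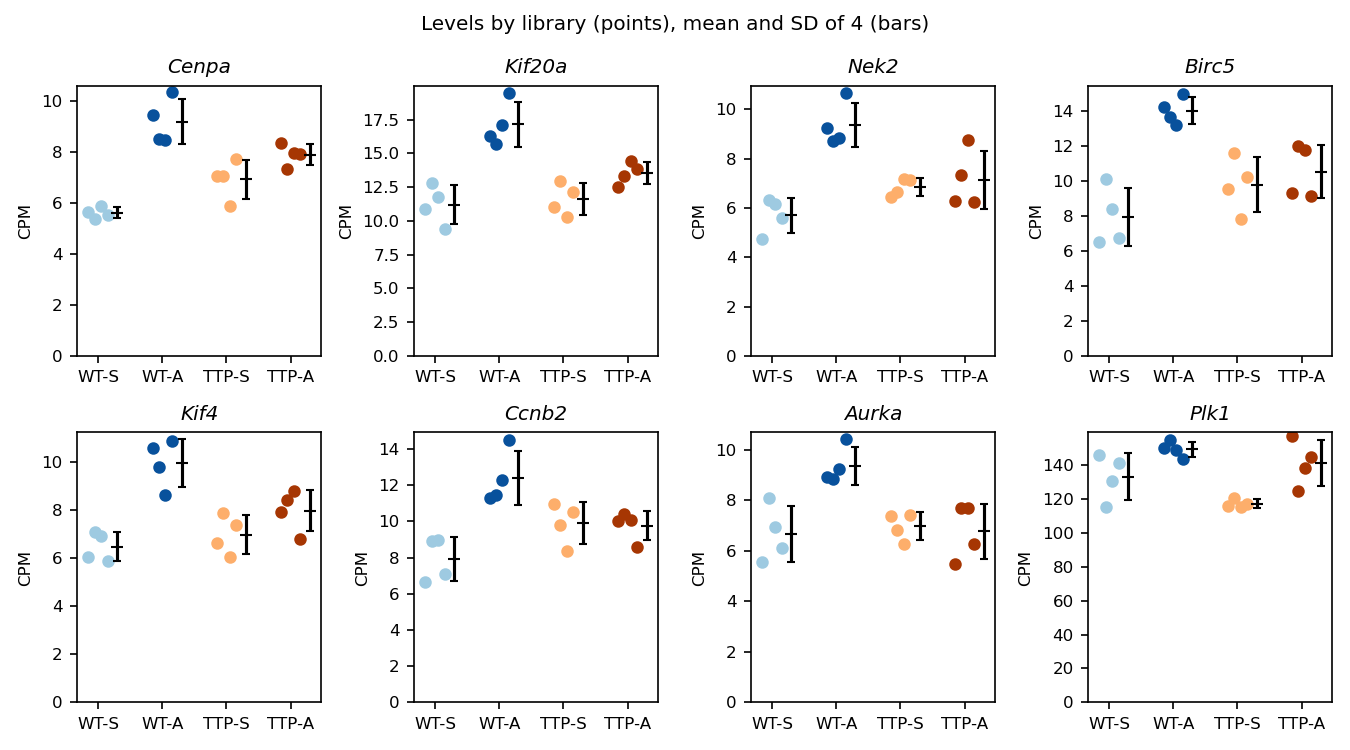
CPM of 8 of the genes in each library (points) with the mean and SD of the 4 libraries of a group (bars). Cenpa, Kif20a, Nek2, Birc5, Kif4, Ccnb2 and Aurka have all WT-A points above all WT-S points, and Plk1 does not.

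Which libraries entered the fit bore on the number of calls. In the 14 libraries 20 genes were called higher, 18 of them among the 22, against 4.83% of genes tested, and all 37 log2 differences were positive. Fitted on only the WT libraries, 13 of the 37 were called higher against 2.32% of genes tested. Without WT-S 4, the lowest WT-S library for most of the genes, it was 13 against 5.81%. Birc5, Ccnb1, Ccnb2, Cenpa, Kif20a, Kif4, Nek2 and Tpx2 were called in all 28 alternative fits. Nuf2 and Prc1 lost their calls without WT-S 2 or WT-S 4, with adjusted p-values of at most 0.0708. Kif23 lost its call without any 1 of WT-S 1, WT-S 2, WT-S 4, WT-A 1, WT-A 2 and WT-A 3 (at most 0.0813). In turn, calls were gained by Aurkb without TTP-S 3, WT-A 1, WT-A 2 or WT-S 3, by Kif11 without WT-A 3 or WT-A 4, by Ccna2 without WT-S 3 and by Ttk without WT-S 2.

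GC content bore on the same pair of libraries. The median transcript GC content of the 37 genes was 46.3%, below the 49.96% of the genes tested. Across the 37, the log2 ratio of WT-A 3 and 4 over WT-A 1 and 2 rose with GC content (Spearman rho 0.88, a description over genes that share these 4 libraries). Of the 37, 22 were lower in WT-A 3 and 4, including all 7 with a GC content under 42%. Of those 7, Nuf2 was called and Bub1, Ect2, Hmmr, Ncapg, Nusap1 and Smc4 were not. At the other end Cdc20, at 55.6% GC, was 1.47 times as high in the pair, whereas Plk1, with the highest GC content (56.0%), was 0.959 times as high. With offsets for GC content in each library, 29 of the 37 were called higher against 8.21% of genes tested. The direction of Smc4, Ncapg and Spc25 in WT-A thus depended on which WT-A libraries were read.

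**Figure D4:**
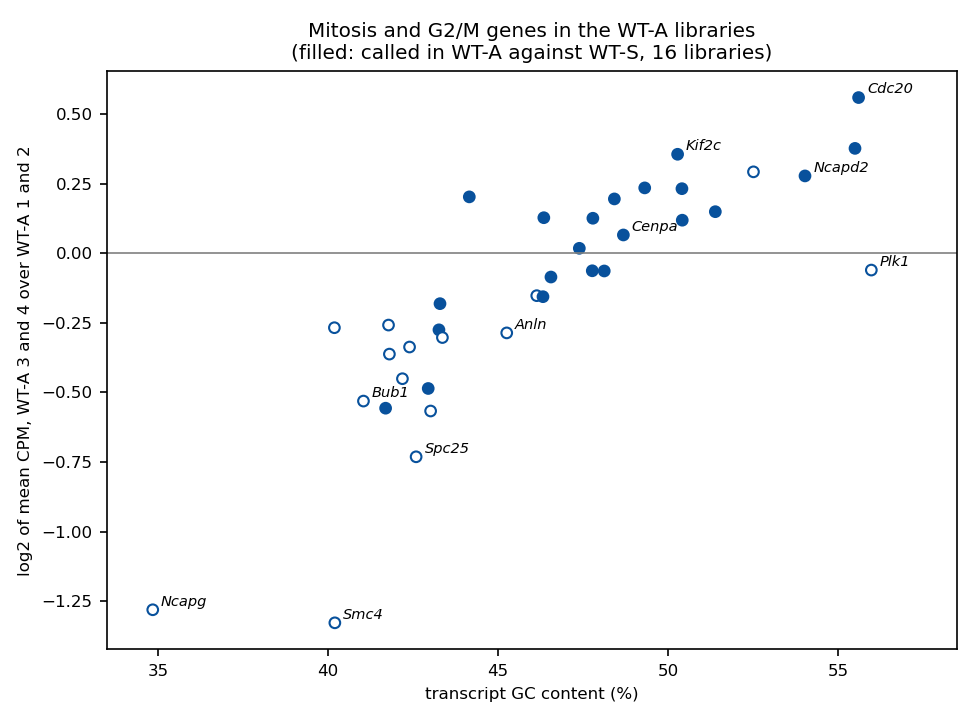
Log2 ratio of mean CPM in WT-A 3 and 4 over WT-A 1 and 2 (y axis) against transcript GC content in percent (x axis) for the 37 genes, filled where called in WT-A against WT-S. Points rise from Ncapg and Smc4 at the lower left to Cdc20 at the upper right.

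In TTPΔARE stomach the same comparison, TTP-A against TTP-S, gave no called gene among the 37 (edgeR, adjusted p), against 2.9% of genes tested. The median log2 difference was 0.064, and 24 of the 37 were positive. The sign of this median was not stable: it was −0.019 with 13 positive without TTP-A 3 and −0.0061 with 18 positive without TTP-S 3. With limma voom it was −0.0030 with 18 positive. It was 0.12 without TTP-A 1 (30 positive) and also without TTP-A 4 (29 positive), and 0.030 without TTP-A 2. At an unadjusted p under 0.05 there were 3 (Kif20a, Nuf2 and Plk1), against 15.9% of genes tested. DESeq2 called 1 of the 37 (Plk1) against 5.44% of its genes, and limma voom with sample weights also called Plk1 alone, against 15.2%. In Plk1 and Nuf2 every TTP-A library was above every TTP-S library, against 6.94% of genes tested.

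Plk1 was at 115, 121, 115 and 117 CPM in TTP-S, against 157, 125, 138 and 144 in TTP-A. Its log2 difference of 0.27 (SE 0.07) missed the threshold with 16 libraries (adjusted p = 0.0614) and passed it with 14 (adjusted p = 0.0439), and it also passed without TTP-A 2, WT-S 1 or WT-S 2 (adjusted p = 0.0179 to 0.0463). Nuf2 was at 3.95 to 4.77 CPM in TTP-S, against 5.23 to 6.87 in TTP-A (log2 0.41, adjusted p = 0.196). The 7 genes with the largest differences in WT were Birc5, Kif2c, Cdc20, Ccnb1, Ube2c, Nek2 and Cenpa, and none of them was called here. Birc5 was at 9.56, 11.6, 7.81 and 10.2 CPM in TTP-S, against 9.31, 12.0, 11.8 and 9.12 in TTP-A, a log2 difference of 0.10 with a 95% interval from −0.18 to 0.39. Kif2c had a log2 difference of −0.02 (interval −0.36 to 0.33), Cdc20 of 0.09 (−0.24 to 0.42), Ccnb1 of 0.14 (−0.15 to 0.44), Ube2c of 0.04 (−0.28 to 0.35) and Nek2 of 0.06 (−0.17 to 0.30). Cenpa was at 7.05, 7.08, 5.88 and 7.72 CPM in TTP-S, against 8.36, 7.34, 7.97 and 7.92 in TTP-A (log2 0.19, interval 0.00 to 0.37, adjusted p = 0.364). In all 7 the TTP-S and TTP-A libraries overlapped. Smc4, which split the WT-A libraries, was at 36.2 to 40.5 CPM in TTP-S, against 36.5 to 40.5 in TTP-A.

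**Figure D5:**
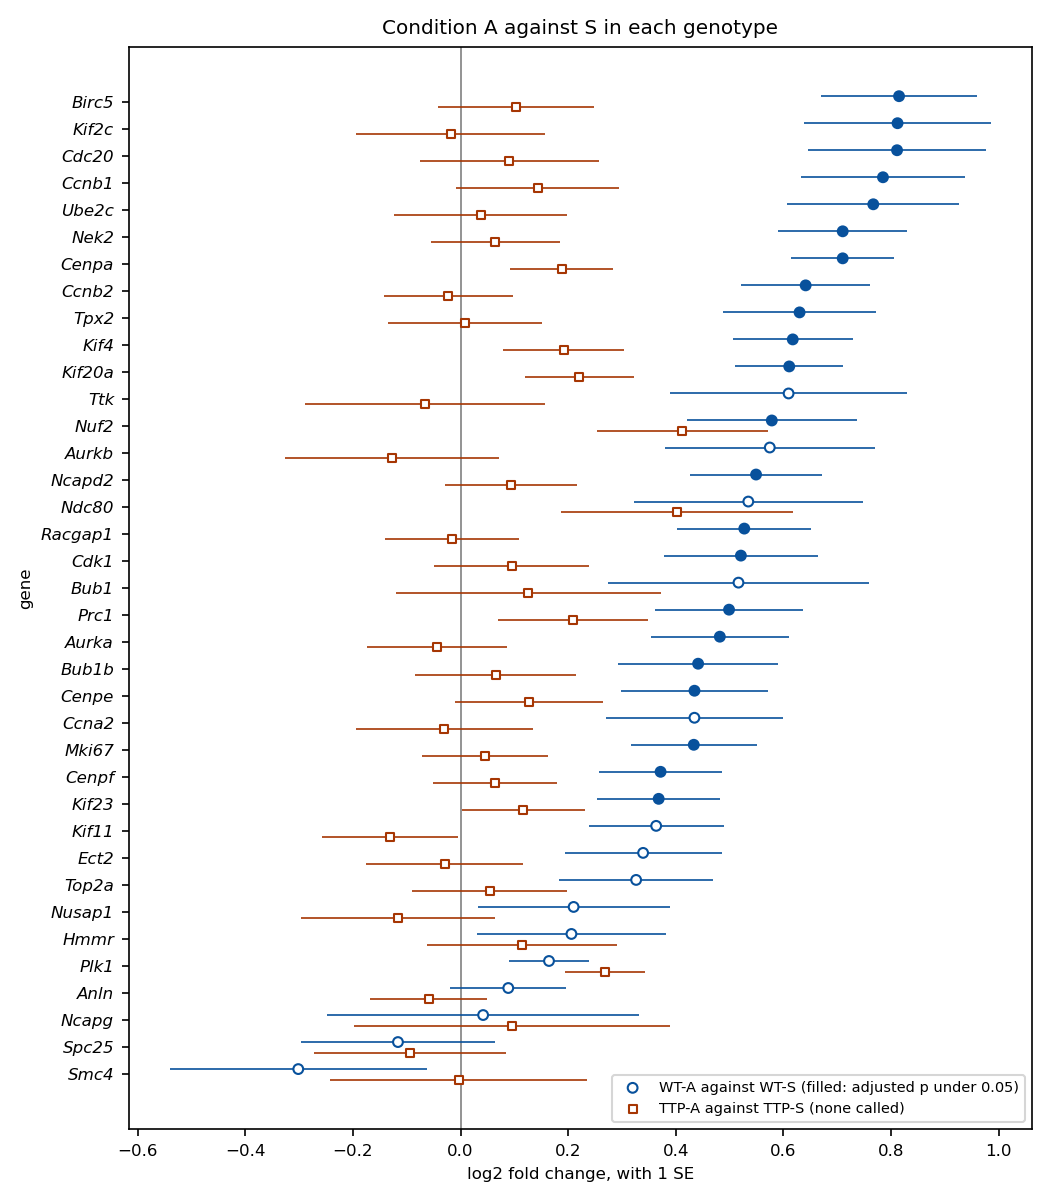
Log2 fold change of A against S with 1 SE on either side for each gene, in WT (circles, filled where called) and in TTPΔARE (squares). WT values reach 0.81 while TTPΔARE values lie between −0.13 and 0.41.

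Whether the response differed between genotypes was tested as the interaction. Its median over the 37 was −0.39 and 33 values were negative, meaning a smaller A against S difference in TTPΔARE, but none was called (edgeR, adjusted p), against 0.0585% of genes tested. At an unadjusted p under 0.05 there were 18 of the 37, against 15.2% of genes tested. DESeq2 called Ccnb2 and Nek2, 2 of the 37, against 1.72% of its genes. Limma voom with sample weights called Kif11 alone, against 1.11%. The largest interaction was that of Kif2c (−0.83, SE 0.25, adjusted p = 0.170), followed by Ube2c (−0.73, SE 0.23, adjusted p = 0.179), Cdc20 (−0.72, SE 0.23, adjusted p = 0.197) and Birc5 (−0.71, SE 0.20, adjusted p = 0.161). The smallest adjusted p was that of Ccnb2 and Cenpa (0.130 each, with interactions of −0.66 and −0.52). The order changed in the 14 libraries, where Ttk had the largest value (−0.93, adjusted p = 0.229), Birc5 was at −0.71, Kif2c at −0.65, Ube2c at −0.53 and Cdc20 at −0.42. Of the 37, 36 were negative there, and Kif11 had the smallest adjusted p (0.0659, −0.70). The difference in response between the genotypes therefore did not pass the test for any of the 37 in this fit.

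The genotypes were compared within each condition. The comparisons share libraries with those above, so their values are not independent of them. Between TTP-S and WT-S none of the 37 was called (edgeR, adjusted p), against 0.0325% of genes tested. Unadjusted p-values were under 0.05 for 5 of the 37, against 7.49% of genes tested, and 33 of the 37 log2 differences were positive with a median of 0.16. The median was 0.070 without WT-S 4 (28 positive) and 0.083 without WT-S 1 (30 positive). DESeq2 called none against 0.626% of its genes, and limma voom with sample weights none against 1.14%. Cenpa was at 5.39 to 5.90 CPM in WT-S and 5.88 to 7.72 CPM in TTP-S (log2 0.30, SE 0.10, adjusted p = 0.399), and Ccnb1 at 2.69 to 3.39 and 3.01 to 4.62 CPM (log2 0.41, SE 0.16, adjusted p = 0.513). Plk1 was among the 4 genes with a negative value (−0.18, SE 0.07, adjusted p = 0.559).

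Between TTP-A and WT-A, 35 of the 37 log2 differences were negative, with a median of −0.27. At an unadjusted p under 0.05 there were 15 of the 37, all lower, against 4225 of the 15385 genes tested. In the 14 libraries all 37 were negative with a median of −0.31, and 17 had an unadjusted p under 0.05, against 19.4% of genes tested. With 16 libraries Aurka fell (log2 −0.46, SE 0.13, adjusted p = 0.0474), and no other of the 37 was called, against 2.3% of genes tested called lower. It was at 8.91, 8.83, 9.25 and 10.4 CPM in WT-A and 5.50, 7.68, 7.68 and 6.25 CPM in TTP-A, with no overlap. The call of Aurka was lost in the 14 libraries (−0.39, adjusted p = 0.172) and when any 1 of 12 of the 16 libraries was omitted (adjusted p = 0.0588 to 0.116). Of all genes tested 442 were called higher and 354 lower in TTP-A, and with upper quartile scaling 417 and 661. The number of the 37 called lower was 9 with DESeq2 (5.21% of its genes), 10 without WT-A 1 (7.69% of genes tested) and 7 without WT-A 2 (4.13%). Kif2c missed the threshold with −0.61 (SE 0.17, adjusted p = 0.0513), Kif20a with −0.34 (adjusted p = 0.0564) and Nek2 with −0.39 (adjusted p = 0.0617). The 14 libraries gave −0.42, −0.24 and −0.33 (adjusted p = 0.237, 0.241 and 0.193). For Kif2c the WT-A libraries were at 5.49, 5.52, 6.12 and 7.96 CPM and the TTP-A libraries at 3.45, 4.20, 4.56 and 4.21 CPM, again without overlap. Spc25 and Smc4 had positive values (0.28 and 0.34, adjusted p = 0.325 and 0.361), which were −0.04 and −0.18 in the 14 libraries.

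Other genes of the cell cycle were read from lists of textbook genes. Of 84 further mitotic genes tested, WT-A against WT-S gave 28 calls higher and 2 lower, with a median log2 difference of 0.26, against 9.8% of genes tested called higher and 8.99% lower. In the 14 libraries 22 were called higher and 2 lower, with a median of 0.38, against 4.83% and 5.68% of genes tested. The largest in 16 libraries were Sapcd2 (1.03, adjusted p = 0.00259), which acts in spindle orientation, Kifc1 (0.98, adjusted p = 0.00277), a kinesin that focuses spindle poles, and Troap (0.95, adjusted p = 0.0195), a spindle protein. In the 14 libraries their values were 0.90 (adjusted p = 0.0159), 0.76 (adjusted p = 0.0127) and 0.66 (adjusted p = 0.160). Of 40 genes of S phase 4 were called higher, close to the 9.8% of genes tested, and none lower, with a median of 0.10. In the 14 libraries none of the 40 was called, and Chaf1b, a chromatin assembly factor subunit with the largest difference in 16 libraries (0.55, adjusted p = 0.0256), was at 0.49 (adjusted p = 0.109). At an unadjusted p under 0.05 there were 2 of the 40 in the 14 libraries, against 27.1% of genes tested.

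Among 23 transcription regulators of the cell cycle 1 rose and 3 fell in WT-A, against 9.8% of genes tested called higher and 8.99% lower. There was 1 call in each direction in the 14 libraries. The gene that rose was Foxm1, the forkhead factor of G2/M genes, at 10.1 ± 1.39 CPM in WT-S, against 15.7 ± 2.65 in WT-A (log2 0.63, adjusted p = 0.00588; 0.53 and 0.0211 in the 14 libraries). Among those that fell, Tfdp2, a partner of E2F factors, had −0.36 (adjusted p = 0.00196; −0.27 and 0.00840 in the 14 libraries), and Lin52, a subunit of the complex that binds CHR, had −0.43 (adjusted p = 0.0370), the latter at −0.31 (adjusted p = 0.220) in the 14 libraries. Of 14 G1 cyclins and cyclin kinase inhibitors 2 rose and 1 fell. Cdkn2b, an inhibitor of the G1 kinases, rose by 0.54 (adjusted p = 0.00383), Cdk4, a G1 kinase, rose by 0.22 (adjusted p = 0.0467) and Ccne2, a cyclin E gene, fell by 0.74 on the log2 scale (adjusted p = 0.0299). Neither Cdk4 nor Ccne2 was called in the 14 libraries (adjusted p = 0.330 and 0.208), and they lost their calls in 14 and 5 of the 16 fits without 1 library.

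In the other comparisons few of these genes were called. In TTP-A against TTP-S, Prim2, a primase subunit, was the 1 called S phase gene, at 14.4 ± 0.640 CPM in TTP-S, against 7.30 ± 1.16 in TTP-A (log2 −0.98, adjusted p = 0.00123). Cdk6, a G1 kinase, fell by 0.37 (adjusted p = 0.0497), a call lost in 11 of the 16 fits without 1 library. In TTP-A against WT-A, 8 of 84 mitotic genes and 5 of 40 S phase genes were called lower, against 2.3% of genes tested, and none higher. They were led by Cdca5 (−0.83, adjusted p = 0.0299), which encodes the cohesion factor sororin, and by Prim2 (−0.54, adjusted p = 0.0311). None of these 13 was called in the 14 libraries, against 0.539% of genes tested called lower, and Cdca5 had −0.84 (adjusted p = 0.0821) there. In those libraries 24 of 84 and 8 of 40 had an unadjusted p under 0.05, against 19.4% of genes tested. Tfdp2 was higher in 16 libraries (0.41, adjusted p = 0.00353) and in 14 (0.33, adjusted p = 0.0115). Cdkn1a, the inhibitor p21, was lower in 16 (−0.36, adjusted p = 0.0279) and in 14 (−0.42, adjusted p = 0.0405), a call lost without any 1 of TTP-A 1, TTP-A 3, TTP-A 4 and WT-A 3 (adjusted p = 0.0531 to 0.0932). The interaction gave no call in these lists, with an unadjusted p under 0.05 for 24 of 84 mitotic, 4 of 40 S phase, 2 of 23 regulator and 2 of 14 G1 genes, against 15.2% of genes tested.

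Markers of other cell types also differed between WT-A and WT-S, and several of their calls changed in the 14 libraries. Of 6 smooth muscle markers 5 were called higher, with sums of 6576 to 7513 CPM in WT-S, 7822 to 9476 in WT-A, 5751 to 8112 in TTP-S and 6288 to 7525 in TTP-A. In the 14 libraries 1 of the 6 was called, and all 6 were positive. Of 8 macrophage markers 3 were called higher with a median log2 difference of 0.27, and their sums were 117 to 152 CPM in WT-S, against 138 to 214 in WT-A. In the 14 libraries 1 of the 8 was called, 4 were positive and the median was 0.047. Mucous neck and SPEM markers were called higher in 3 of 9 (4 in the 14 libraries), and their sums were 1145 to 3510 CPM in WT-S, against 2931 to 3344 in WT-A. The highest WT-S sum was that of WT-S 1, and the other 3 were 1145 to 1743 CPM. Chief cell markers were called lower in 3 of 5 (4 in the 14 libraries) and higher in 1, with sums of 78569 to 153390 CPM in WT-S, against 48992 to 103711 in WT-A. Here WT-S 1 was the lowest WT-S library, and the other 3 were at 126412 to 153390 CPM. Parietal cell markers were called lower in 4 of 8 (5 in the 14 libraries). Of 4 surface mucous markers none was called, all were negative with a median of −0.33, and 3 had an unadjusted p under 0.05. Their median was −0.55 in the 14 libraries, with 1 called lower. Of all genes tested 9.8% were called higher and 8.99% lower, and 4.83% and 5.68% in the 14 libraries. With 16 libraries 5620 of the 15385 genes tested had an unadjusted p under 0.05.

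Squamous epithelium of the forestomach was called higher in 2 of 14 markers, and in 5 of 14 in the 14 libraries. All 14 were positive, with a median log2 difference of 2.80 (3.29 in the 14 libraries). Of them 9 had an unadjusted p under 0.05, against 5620 of the 15385 genes tested. Its 15 markers summed to 62.1, 67.9, 345 and 140 CPM in WT-S and to 151, 1391, 764 and 172 CPM in WT-A. Averaged over all 16 libraries Sprr1a was the highest of them, at 57.7 to 97.4 CPM in WT-S and 94.7 to 227 in WT-A. In TTP-S they summed to 146 to 718 CPM and in TTP-A to 79.5 to 412. T cell markers summed to 3.92 to 5.32 CPM in WT-S, 3.93 to 8.08 in WT-A, 4.57 to 6.72 in TTP-S and 7.46 to 8.95 in TTP-A. In WT-A against WT-S, 1 of 4 T cell markers tested was called higher, with a median of 0.72. Of 2 B and plasma cell markers tested 1 was called higher and 1 lower. None of these was called in the 14 libraries. The shares over all genes tested are those given above for this comparison. Among granulocyte markers Siglecf was the highest, at 2.59 to 6.38 CPM in WT-S and 3.30 to 8.05 in WT-A. It was at 2.16 to 3.01 CPM in TTP-S and 3.91 to 7.36 in TTP-A. Ly6g, Mpo, Elane and Epx had at most 3 counts in any library, Epx none. Only 1 granulocyte marker passed the filter. It was called higher in TTP-A against TTP-S (log2 1.22), against 2.9% of genes tested called in either direction. The globin genes Hba-a1, Hba-a2, Hbb-bs and Hbb-bt were at 0 counts in every library.

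Marker lists differed in the other comparisons too. In TTP-S against WT-S no marker of these cell types was called. All 14 squamous markers were positive, with a median of 1.34, and 1 had an unadjusted p under 0.05. All 5 adipocyte markers were positive, with a median of 0.57, and 3 had an unadjusted p under 0.05. Of 9 mucous neck and SPEM markers 1 was higher and 4 were lower at that threshold, against 7.49% of genes tested. In TTP-A against TTP-S, mucous neck and SPEM markers were called higher in 2 of 9 with a median of 0.56, and chief cell markers in 1 of 5. Surface mucous markers were called lower in 1 of 4 with a median of −0.54, all 4 with an unadjusted p under 0.05. Adipocyte markers were called lower in 1 of 5 with a median of −0.68. Of all genes tested 2.9% were called in either direction, and 15.9% had an unadjusted p under 0.05. In TTP-A against WT-A, smooth muscle markers were called lower in 4 of 6. In the 14 libraries none was, all 6 were negative and 4 had an unadjusted p under 0.05, against 19.4% of genes tested. Mucous neck and SPEM markers were called lower in 2 of 9 (1 in the 14 libraries). Chief cell markers were called higher in 2 of 5 (3 in the 14 libraries) and parietal cell markers in 1 of 8 (2 in the 14 libraries). All 14 squamous markers were negative, with a median of −2.03 and no call. Of the 15385 genes tested 442 were called higher and 354 lower, and 196 and 83 in the 14 libraries. In the interaction with 16 libraries, 1 of 9 mucous neck and SPEM markers was called, with a negative value, against 0.0585% of genes tested. No marker of the other cell types was called there. In the 14 libraries 2 of 5 chief cell and 1 of 8 parietal cell markers were called with positive values, against 27 of the 15385 genes tested. With 16 libraries all 14 squamous markers were again negative, with a median of −3.58, and 6 had an unadjusted p under 0.05. All 6 smooth muscle markers were negative (3 with an unadjusted p under 0.05), as were 4 of 5 adipocyte markers (all 4 with an unadjusted p under 0.05). All 8 parietal cell markers were positive, 2 of them with an unadjusted p under 0.05. Chief cell markers were positive in 4 of 5, with a median of 0.67, and 3 had an unadjusted p under 0.05. Of genes tested 15.2% had an unadjusted p under 0.05. The part of these cell types in the differences of the 37 genes was not tested in any comparison.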

How the data were processed

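The deposited data were 1 table of read counts, whole numbers per gene symbol. The submitters' processing notes name STAR 2.7.0f, featureCounts, Subread 1.6.4, DESeq2 and mm10, without roles, and the annotation, strand setting and filters are not given in the sources used here. RNA was extracted in TRIzol and made into Illumina TruSeq libraries, per the labels' protocols. Groups and replicate numbers came from the sample titles. They entered edgeR 4.0.16 (R 4.3.3) unchanged: filterByExpr, TMM scaling, and a quasi-likelihood fit with 1 mean per group over 16 libraries. Adjusted p-values are Benjamini-Hochberg values over 15385 genes, and a gene was called at an adjusted p under 0.05. Each SE was derived from the log2 difference and its F statistic, and a 95% interval is 1.96 SE on either side. Transcript length and GC content were those of the longest transcript of each symbol in GENCODE M21 (GRCm38). All members of the set are named. Of each other cell cycle list the called genes with the 3 largest changes could be named, or the gene with the smallest p. The genes and lists were chosen with earlier results of these data known. Pairs of libraries within a group differed by more than sampling noise, so none was merged as a duplicate. The procedure was tested on simulated data. Alternatives were DESeq2 1.42.0, limma 3.58.1 (voom), other scalings and filters, fits of only the libraries of 2 groups, a replicate block, GC content offsets, 14 libraries, and leaving out each library. The 14 libraries with GC content offsets were added after seeing the data. Genes that share reads with overlapping or near-identical genes could not be told apart in the counts.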

Additional observations from a re-analysis of the deposited data

Results flagged for a closer look

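Within groups of 4 libraries, 148 sets of values were checked for 1 library far from the other 3, and chance alone flags about 1 in 20 such sets. In WT-S 4 Cdk1 was at 5.48 CPM, while the other WT-S libraries were at 8.34 to 8.67. In WT-A 4 Ccnb1 was at 6.52 CPM against 4.76 to 4.97 in the rest of its group, and Aurkb was at 8.30 CPM against 5.38 to 5.73. In TTP-A 4 Ndc80 was at 1.57 CPM against 2.40 to 2.45. In TTP-A 3 Cdc20 was at 11.5 CPM against 8.60 to 8.99, and Kif23 was at 22.9 CPM against 16.1 to 16.7.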

How the results depend on the processing

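The number of the 37 genes called in WT-A against WT-S, 22 with all libraries, was 13 when only these 2 groups were fitted and 13 to 24 when 1 library was left out, lowest without WT-S 4. In TTP-A against TTP-S, 0 with all libraries, it was 1 with GC content offsets, in the 14 libraries, with only the 2 groups, with DESeq2 and with voom, 2 in the 14 libraries with GC content offsets, and 0 to 1 without 1 library. In TTP-A against WT-A, 1 with all libraries, it was 5 with upper quartile factors, 2 with a minimum of 1 CPM in 4 libraries, 4 with GC content offsets and with voom, and 9 with DESeq2. It was 0 with no filter, in the 14 libraries with or without GC content offsets, and with only the 2 groups, and 0 to 10 without 1 library (10 without WT-A 1, 7 without WT-A 2). The interaction, 0 with all libraries, gave 1 with GC content offsets (16 or 14 libraries) and with voom, and 2 with DESeq2. Smc4 in WT-A against WT-S turned from −0.30 to a called 0.26 (adjusted p = 0.0177) in the 14 libraries with GC content offsets. Over all alternatives the median of the 37 was 0.41 to 0.64 in WT-A against WT-S, −0.019 to 0.12 in TTP-A against TTP-S, 0.070 to 0.22 in TTP-S against WT-S, −0.39 to −0.22 in TTP-A against WT-A and −0.53 to −0.32 in the interaction. The cause of these changes was not tested.

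Equal replicate numbers did not pair the libraries: of 24 same-numbered pairs 5 had correlated deviations over 0.1 (−0.43 to 0.44), and 4 of 16 libraries correlated best with their own number. With the replicate block 19 of the 37 were called in WT-A against WT-S, and 1 (Kif2c in place of Aurka) in TTP-A against WT-A. With the replicate block and GC content offsets together 29 were called in WT-A against WT-S. Ndc80 had 24 to 83 counts per library and Ttk 25 to 114, and the effect of depth on their calls was not tested.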
